A study of Rattus norvegicus with 18 samples.

Results

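The genes described here are those by which cells take up, store and release iron: Tf, Tfrc, Hfe, Fth1, Ftl1, Slc40a1, Cp, Aco1 and Ireb2. They were read in O4+ cells and A2B5+ cells sorted by flow cytometry from dissociated whole brains of rat pups, all male, taken on postnatal day 7. The O4 antibody binds sulfatide and similar lipids and marks late progenitors and oligodendrocytes, and the A2B5 antibody binds gangliosides of glial progenitors and of some neurons. The data comprised 4 replicates of O4+ cells and 5 of A2B5+ cells, each prepared from a litter of 10 pups, and RNA of each was read on 2 kinds of array, A and B. No strain or treatment is given, replicates pool the pups of a litter, and the labels do not say whether O4+ and A2B5+ replicates shared litters. On array B the source label names only whole brain, so the antigen named in the title set the group on both kinds.

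Members were all probe sets whose annotation gives exactly 1 gene symbol and that symbol is in the list of 9 genes. This gave 12 of the 31256 probe sets (11 of array A, 1 of array B), and they cover 6 genes: Tfrc, Hfe, Slc40a1, Cp, Aco1 and Ireb2. Tf, Fth1 and Ftl1 had no such probe set. Their symbols occur on 3 probe sets of array A and 1 of array B that carry other symbols too, so these genes were not analysed here.

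Iron enters most cells bound to transferrin (Tf), through the transferrin receptor (Tfrc), is stored in ferritin (Fth1 and Ftl1) and leaves through ferroportin (Slc40a1), helped by ferroxidases such as ceruloplasmin (Cp). In cells short of iron, the iron regulatory proteins made from Aco1 and Ireb2 bind stem-loops in mRNAs, which protects the Tfrc mRNA and blocks translation of ferritin and ferroportin mRNAs. Oligodendrocytes are the cells of the brain that stain most strongly for iron, which enzymes of lipid synthesis and respiration need.

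The deposited values are linear ratios in which the median of a probe set's 9 arrays was exactly 1 for most probe sets, so a ratio compares arrays for a probe set and says nothing about levels of different genes. Differences are in log2 units, O4+ minus A2B5+, with the standard error (SE) of a limma fit over all tested probe sets of an array type, and a difference was called at a Benjamini-Hochberg adjusted p under 0.05. All 12 probe sets passed the filter on low values, a ratio of at least 1 on at least 4 of 9 arrays. The scaling fixed this in advance, since a median of 1 over 9 arrays puts at least 5 arrays at 1 or more. For 5 of the 12 probe sets no O4+ array had a ratio of 1 or more, so they passed through the A2B5+ arrays only. For Slc40a1 1376972_at and Cp 1368419_at and 1368418_a_at, 4 A2B5+ arrays and 1 O4+ array had such a ratio. The A2B5+ arrays would have met the filter alone there too. The arrays' number limits the precision, and since RNA came from sorted populations, fewer cells of a type and less RNA per cell cannot be told apart.

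The O4+ label was checked on oligodendrocyte markers, while no list of A2B5+ progenitor markers was read, so that label was not checked. Oligodendrocyte markers were higher in all 12 tested probe sets of array A and all 4 of array B in O4+ cells relative to A2B5+ cells, with median differences of 4.70 and 5.45. Arrays differed in scale on array A, where the median over tested probe sets lay at 0.062 to 0.163 on O4+ arrays and at -0.12 to 0 on A2B5+ arrays in log2 units. The median difference of all tested probe sets was 0.26 for array A and 0.037 for array B. Centring each array on its median changed the share of higher calls on array A to 51.0%, against 68.8% as deposited, and a member's value with centring is given where its call changes.

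Transcripts of the transferrin receptor Tfrc, the iron exporter Slc40a1 (by 2 of its 3 probe sets) and the ferroxidase Cp were lower in O4+ cells than in A2B5+ cells, while Hfe was not called. Of the 11 member probe sets on array A, 7 were lower and 1 was higher, where 14.7% of all tested probe sets were lower and 32.5% were higher. The 7 came from 3 genes, Tfrc, Slc40a1 and Cp, so they are not 7 independent observations. The values of the populations did not overlap for 5 of the 11, all of them lower in O4+ cells, where 10.7% of all tested probe sets were lower without overlap. They are the same 5 that passed the filter with no O4+ array at a ratio of 1 or more. The scaling makes these sets identical, because each member had 5 arrays at 1 or more and there were 5 A2B5+ arrays. The match is therefore no separate result. The median difference of the 11 was -0.84. On array B the 1 member probe set, of Ireb2, was not called (limma, 0 of 1, also at an unadjusted p under 0.05), where 9.93% of tested probe sets were higher and 13.8% lower.

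**Figure D1:**
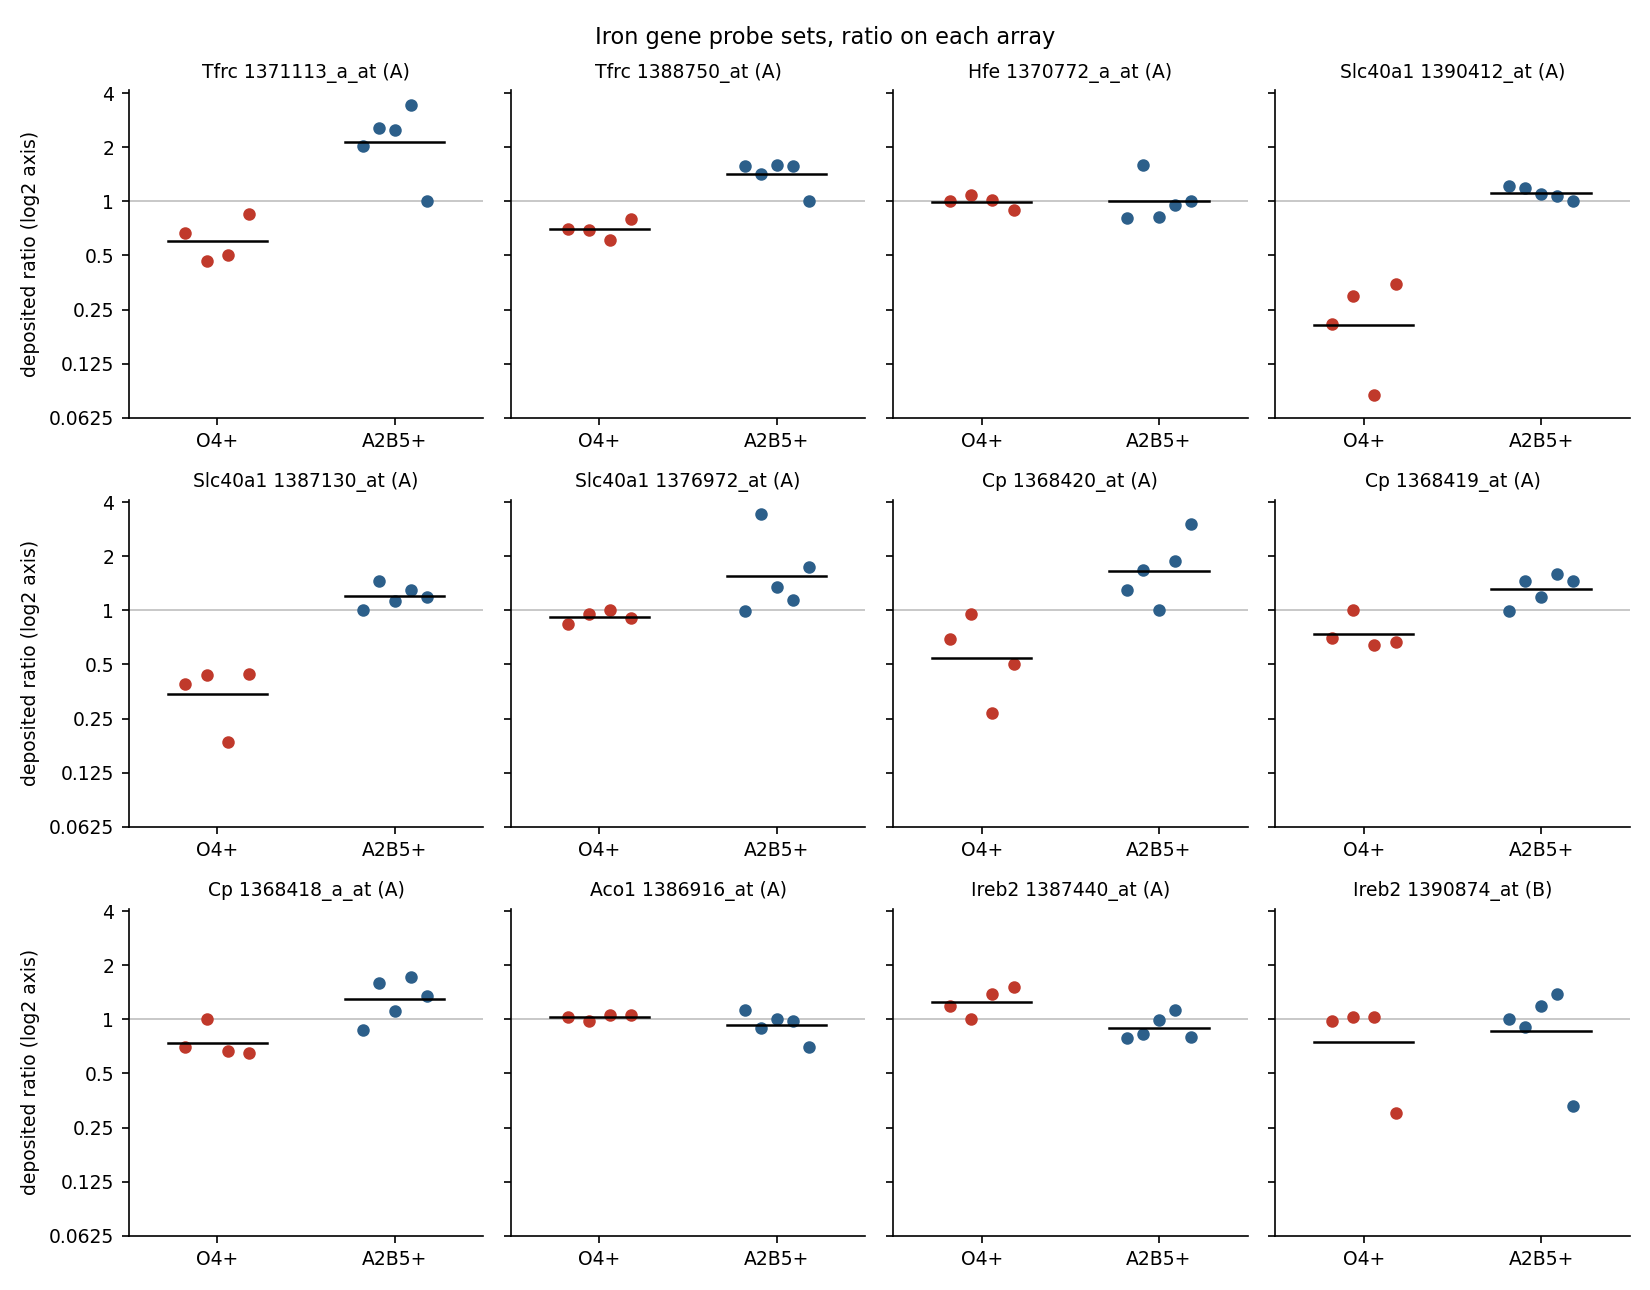
Deposited ratio (log2 axis) of the 12 iron gene probe sets, with array type in brackets; points are arrays in replicate order, red for O4+ (n = 4) and blue for A2B5+ (n = 5), bars are means on the log scale and the grey line marks a ratio of 1. All O4+ points lie below all A2B5+ points for both Tfrc probe sets, 2 of Slc40a1 and 1 of Cp.

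Tfrc encodes transferrin receptor 1, which carries iron-loaded transferrin into the cell. Probe set 1371113_a_at had ratios of 0.666, 0.465, 0.50 and 0.851 in O4+ replicates 1 to 4, against 2.04, 2.57, 2.51, 3.42 and 1.00 in A2B5+ replicates 1 to 5. Probe set 1388750_at had 0.702, 0.695, 0.611 and 0.795 in O4+ replicates 1 to 4, against 1.58, 1.43, 1.60, 1.57 and 1.00 in A2B5+ replicates 1 to 5. In both, every O4+ array lay below every A2B5+ array, and A2B5+ replicate 5 was the lowest of its group. The means were -0.73 ± 0.40 in O4+ cells and 1.10 ± 0.67 in A2B5+ cells for the first (log2 ratio, SD, n = 4 and 5), and -0.52 ± 0.16 in O4+ cells and 0.50 ± 0.29 in A2B5+ cells for the second. Tfrc thus fell by 1.83 ± 0.33 on the log2 scale by the first probe set (SE, limma adjusted p = 0.0016, 3.55-fold lower) and by 1.02 ± 0.17 by the second (adjusted p = 9.2e-04, 2.03-fold lower). The fall was 0.81 larger for the first than for the second (two-sided exact permutation test over the 126 splits of the arrays, p = 0.032, adjusted p = 0.067 over 7 pairs of probe sets of a gene). The smallest p this test allows is 0.0159, which for a single pair among 7 cannot pass 0.05 after adjustment, so an adjusted p above 0.05 here does not show that probe sets fell alike.

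Hfe, the partner of transferrin receptor 1 that is mutated in haemochromatosis, showed no called difference. Its ratios were 1.00, 1.08, 1.02 and 0.897 in O4+ replicates 1 to 4, against 0.813, 1.59, 0.823, 0.958 and 1.01 in A2B5+ replicates 1 to 5. The O4+ arrays all lay inside the range of the A2B5+ arrays, which A2B5+ replicate 2 sets at the top. The difference was -0.01 ± 0.20 (limma adjusted p = 0.96), with a 95% interval of -0.46 to 0.43, so a change of up to about that size in either direction remains possible.

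Slc40a1 encodes ferroportin, the exporter of iron from cells, and 1 of its probe sets, 1390412_at, had the largest fall among the members. Probe set 1390412_at had ratios of 0.209, 0.298, 0.0839 and 0.346 in O4+ replicates 1 to 4, against 1.23, 1.18, 1.10, 1.08 and 1.00 in A2B5+ replicates 1 to 5. Probe set 1387130_at had 0.387, 0.436, 0.184 and 0.444 in O4+ replicates 1 to 4, against 1.00, 1.46, 1.12, 1.31 and 1.18 in A2B5+ replicates 1 to 5. The A2B5+ arrays lay close together and the O4+ arrays lay well below them, with O4+ replicate 3 the lowest in both probe sets. The falls were 5.40-fold (-2.43 ± 0.35, limma adjusted p = 4.0e-04) and 3.51-fold (-1.81 ± 0.26, adjusted p = 3.6e-04). Without O4+ replicate 1, 2, 3 or 4 or any A2B5+ replicate, the difference of these probe sets stayed between -2.68 and -2.0 for the first and between -1.94 and -1.51 for the second.

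The remaining Slc40a1 probe set, 1376972_at, was not called. Its ratios were 0.835, 0.958, 1.00 and 0.913 in O4+ replicates 1 to 4, against 0.994, 3.44, 1.35, 1.15 and 1.74 in A2B5+ replicates 1 to 5. The O4+ arrays hardly varied and A2B5+ replicate 1 lay among them. Its difference was -0.76 ± 0.31 (limma adjusted p = 0.068), and it passed the threshold with arrays centred (-0.93, adjusted p = 0.0496), with array weights (-0.72, adjusted p = 0.027) and without A2B5+ replicate 1 (-0.92, adjusted p = 0.041). It was not called under the other 13 alternatives, and its size rested on A2B5+ replicate 2, without which it was -0.47 (adjusted p = 0.075). Its adjusted p was highest without O4+ replicate 1 (0.13). After subtracting the median pattern of the low probe sets (median ratio below 1), its O4+ values had an SD of 0.11, against a median SD of 0.056 in these low probe sets and 0.29 in the others. The fall of 1390412_at was larger than that of 1387130_at by 0.62 (exact permutation p = 0.0159, the smallest these splits allow, adjusted p = 0.067) and than that of 1376972_at by 1.68 (p = 0.032, adjusted p = 0.067). The fall of 1387130_at was larger than that of 1376972_at by 1.06 (exact permutation p = 0.063, adjusted p = 0.074). The limit of this test given for Tfrc holds here and for Cp too.

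Cp encodes ceruloplasmin, a copper ferroxidase that oxidises the iron released by ferroportin and is known from astrocytes in the brain. Probe set 1368420_at had ratios of 0.693, 0.954, 0.267 and 0.503 in O4+ replicates 1 to 4, against 1.30, 1.68, 1.00, 1.88 and 3.04 in A2B5+ replicates 1 to 5. Every O4+ array lay below every A2B5+ array, with O4+ replicate 3 lowest and A2B5+ replicate 5 highest. This probe set fell 3.04-fold (-1.60 ± 0.39, limma adjusted p = 0.0085).

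The other Cp probe sets gave smaller falls. Probe set 1368419_at had 0.702, 1.00, 0.642 and 0.663 in O4+ replicates 1 to 4, against 0.987, 1.46, 1.19, 1.61 and 1.46 in A2B5+ replicates 1 to 5. Probe set 1368418_a_at had 0.701, 1.00, 0.663 and 0.651 in O4+ replicates 1 to 4, against 0.878, 1.59, 1.11, 1.72 and 1.35 in A2B5+ replicates 1 to 5. Both overlapped at the same place, since O4+ replicate 2 lay above A2B5+ replicate 1. The falls were 1.78-fold (-0.84 ± 0.19, adjusted p = 0.0058) and 1.74-fold (-0.80 ± 0.22, adjusted p = 0.015). These 2 falls differed by 0.035 (exact permutation p = 0.62, adjusted p = 0.62). The SD of the difference between the 2 probe sets was 0.030 on O4+ arrays and 0.13 on A2B5+ arrays. Both are annotated to the same sequence record, so they are not separate observations. The 2 falls were 0.77 and 0.80 smaller than that of 1368420_at (exact permutation p = 0.048 and adjusted p = 0.067 for each).

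Promoters of the 3 genes that were lower in O4+ cells are shown to let their sequences be compared. They are the 250 bases before the annotated start in RefSeq (GRCr8), 5′ to 3′ on the gene's strand, at chr11:81690319-81690568 (minus strand) for Tfrc, chr9:55543461-55543710 (minus strand) for Slc40a1 and chr2:104368420-104368669 (plus strand) for Cp. Capitals mark matches on either strand to the hypoxia response core ACGTG, the GC box GGGCGG, the TATA box TATAAA or the antioxidant response core TGACNNNGC.
Tfrc: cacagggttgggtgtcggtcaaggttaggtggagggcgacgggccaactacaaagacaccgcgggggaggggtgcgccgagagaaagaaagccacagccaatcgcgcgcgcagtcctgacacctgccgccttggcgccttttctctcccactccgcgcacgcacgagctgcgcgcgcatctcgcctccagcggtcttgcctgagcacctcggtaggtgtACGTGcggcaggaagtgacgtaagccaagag
Slc40a1: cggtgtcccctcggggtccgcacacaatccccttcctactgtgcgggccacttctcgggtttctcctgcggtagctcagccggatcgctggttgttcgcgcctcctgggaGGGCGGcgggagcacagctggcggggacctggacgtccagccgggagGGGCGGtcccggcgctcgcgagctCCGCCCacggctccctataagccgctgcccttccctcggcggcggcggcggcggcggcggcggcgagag
Cp: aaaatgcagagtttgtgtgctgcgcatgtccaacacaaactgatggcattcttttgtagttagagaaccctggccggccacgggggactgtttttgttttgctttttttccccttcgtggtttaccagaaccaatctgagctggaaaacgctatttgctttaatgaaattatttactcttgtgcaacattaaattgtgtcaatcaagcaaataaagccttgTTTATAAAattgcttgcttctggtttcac

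The 3 windows shared none of these motifs. Tfrc held 1 hypoxia response core, beginning at position -31 from the start, Slc40a1 held 3 GC boxes, and Cp held a TATA box, which matched on both strands in overlapping letters and was counted as 2. Of all 33469 promoter windows of the same length, 16.6% held the hypoxia core, 30.5% the GC box, 12.9% the TATA box and 10.1% the antioxidant core. RefSeq's table held 6 of the 9 genes. A match of these letters is a description of the window only.

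Neither iron regulatory gene had a difference that was called under all alternatives. Aco1 encodes cytosolic aconitase, which becomes iron regulatory protein 1 when it lacks its iron-sulfur cluster. Its ratios were 1.03, 0.976, 1.06 and 1.06 in O4+ replicates 1 to 4, against 1.13, 0.893, 1.00, 0.984 and 0.699 in A2B5+ replicates 1 to 5. The populations overlapped, and the difference was 0.15 ± 0.15 (limma adjusted p = 0.44, 95% interval -0.19 to 0.48).

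Ireb2 encodes iron regulatory protein 2, which is degraded when iron is plentiful. On array A, probe set 1387440_at had ratios of 1.19, 1.00, 1.38 and 1.52 in O4+ replicates 1 to 4, against 0.793, 0.825, 0.989, 1.13 and 0.799 in A2B5+ replicates 1 to 5. O4+ replicate 2 lay below A2B5+ replicate 4, so the populations overlapped. It was the 1 member probe set called higher, by 0.48 ± 0.17 (1.40-fold, limma adjusted p = 0.039). The call was lost with arrays centred (0.31, adjusted p = 0.16), with quantile normalization (0.26, adjusted p = 0.25), and on leaving out any array except A2B5+ replicate 4 or O4+ replicate 2 (0.39 to 0.52, adjusted p = 0.054 to 0.11 over those 7).

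On array B, Ireb2 probe set 1390874_at had ratios of 0.977, 1.03, 1.03 and 0.303 in O4+ replicates 1 to 4, against 1.00, 0.908, 1.18, 1.38 and 0.329 in A2B5+ replicates 1 to 5. O4+ replicate 4 and A2B5+ replicate 5 lay far below all other arrays. The difference was -0.21 ± 0.50 (limma adjusted p = 0.78, 95% interval -1.35 to 0.94), an interval that holds the value from array A. Replicate numbers could not carry O4+ values from array A to array B. Over the 100 probe sets shared by both types, each of the 5 A2B5+ arrays of type A resembled its own number on type B best (r = 0.78 to 0.89 across probe sets), while O4+ replicates 1 to 4 on array A best resembled O4+ replicates 3, 4, 1 and 2 on array B (r = 0.80 to 0.94). By that match, O4+ replicate 4 on array B stands beside O4+ replicate 2 of array A, the lowest O4+ array for Ireb2 there.

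**Figure D2:**
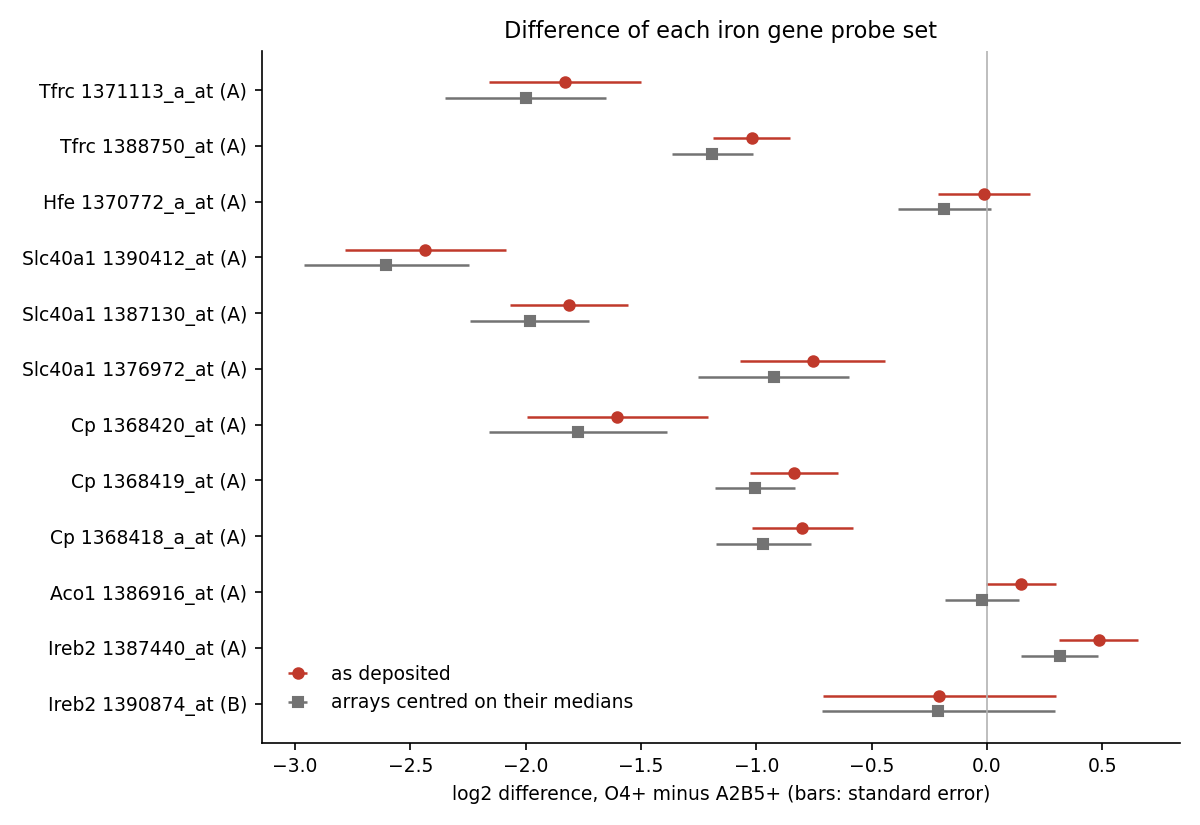
Log2 difference, O4+ minus A2B5+, of each iron gene probe set with its standard error (array type in brackets), as deposited (red circles) and with arrays centred on their medians (grey squares). The 2 Tfrc, 3 Slc40a1 and 3 Cp probe sets lie left of 0 in both, Hfe lies near 0 as deposited, Aco1 lies near 0 when centred, and Ireb2 on array A moves toward 0 from 0.48 to 0.31.

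Markers of microglia, endothelial cells and astrocytes moved in the same direction as Tfrc, Slc40a1 and Cp. On array A, 10 of 12 tested probe sets of microglia and macrophage markers were lower in O4+ cells and 0 higher, 6 of 10 endothelial and mural ones were lower and 0 higher, and 7 of 12 astrocyte and radial glia ones were lower and 0 higher (limma, also 0 higher at an unadjusted p under 0.05 in each). The mean log2 ratio of the microglia list ran from -1.53 to -0.04 on O4+ arrays and from -0.03 to 0.83 on A2B5+ arrays. That of the endothelial list ran from -1.83 to -0.75 on O4+ arrays and from 0.11 to 0.59 on A2B5+ arrays. That of the astrocyte list ran from -0.86 to -0.27 on O4+ arrays and from -0.02 to 1.05 on A2B5+ arrays.

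Some arrays took the same place in markers and members, and others did not. O4+ replicate 3, the lowest O4+ array for Cp 1368420_at and for Slc40a1 1390412_at and 1387130_at, was also the lowest O4+ array in the microglia and endothelial lists. O4+ replicate 2, the highest O4+ array for the 3 Cp probe sets, was the highest O4+ array in those 2 lists. Neither place was particular to them. O4+ replicate 3 was also the lowest O4+ array in the choroid plexus and erythroid lists, and O4+ replicate 2 the highest in these and the neuron list on array A. O4+ replicate 2 was also the highest O4+ array in the median pattern of the low probe sets (-0.39, against -0.60 to -0.54). A2B5+ replicate 5, the lowest of its group for Tfrc, was the lowest of its group in the astrocyte and neuron lists, and its neuron mean of -0.43 lay within the O4+ range of -0.88 to -0.33. O4+ replicate 4, not 2, was the highest O4+ array for Slc40a1 1390412_at and 1387130_at. A2B5+ replicate 1, the lowest of its group in the microglia list, was the highest of its group for Slc40a1 1390412_at. It was the lowest of its group for Slc40a1 1387130_at and 1376972_at and for Cp 1368419_at and 1368418_a_at, but not for Cp 1368420_at. A2B5+ replicate 2 was the highest of its group in the microglia and endothelial lists. It was also the highest for Slc40a1 1387130_at and 1376972_at, but not for Slc40a1 1390412_at or any Tfrc or Cp probe set. In choroid plexus and ependymal markers the ranges overlapped (-0.50 to 0.26 on O4+ arrays, -0.06 to 0.37 on A2B5+ arrays), with 2 of 8 probe sets lower and 1 higher (0 higher with arrays centred, limma, against 2 at an unadjusted p under 0.05 as deposited). In erythroid markers 2 of 5 were lower and 2 higher (with arrays centred 2 lower and 0 higher), and the ranges also overlapped (-0.87 to 0.11 on O4+ arrays, 0.03 to 0.18 on A2B5+ arrays). Of neuron markers, 6 of 12 were lower and 1 higher on array A, while both tested on array B were higher. Those on array B are probe sets of 1 gene, Elavl3. A ratio cannot be 0, so no defining marker could be said to be absent. The part of these cell types in the differences of Tfrc, Slc40a1 and Cp was not tested.

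**Figure D3:**
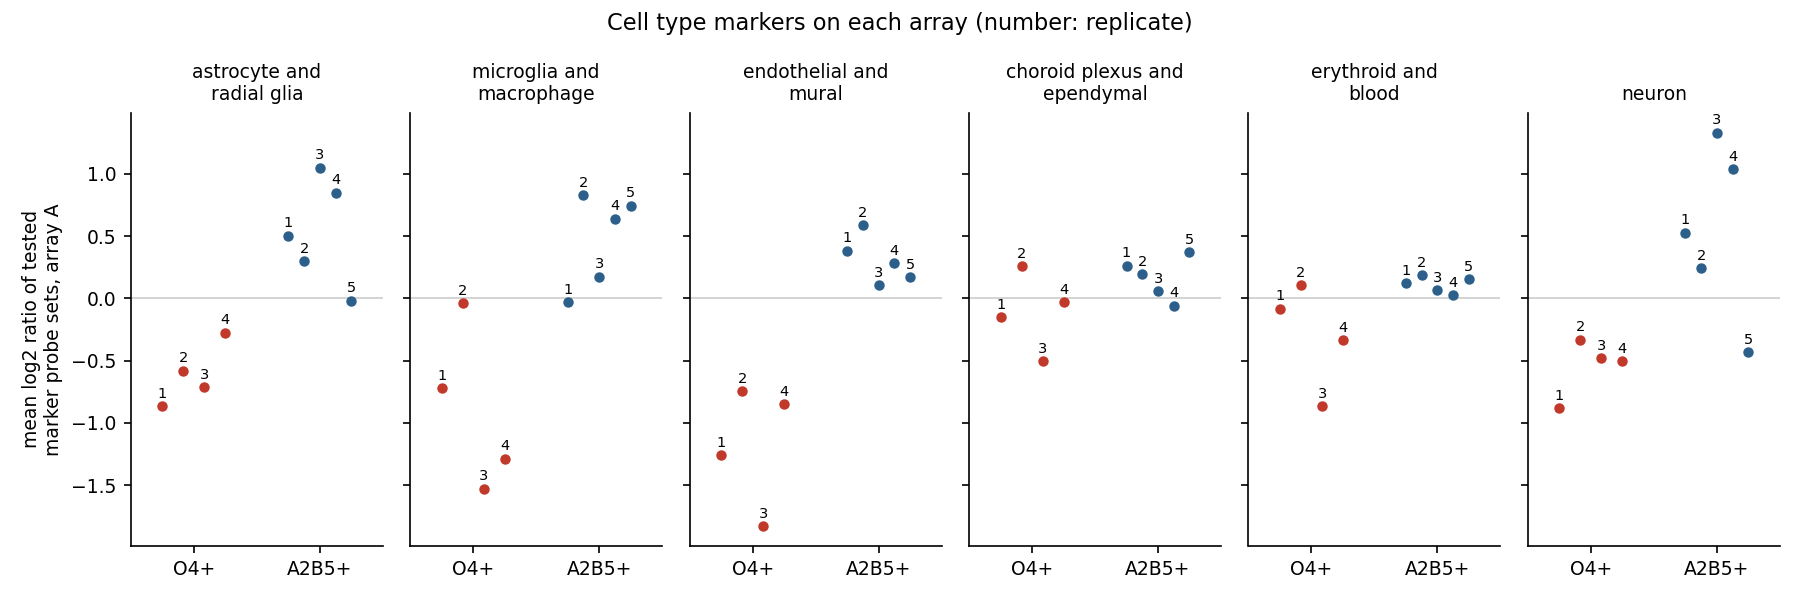
Mean log2 ratio of the tested marker probe sets of 6 cell type lists on each array of type A, O4+ left (red) and A2B5+ right (blue), with the replicate number above each point. Among the 6 shown, which leave out the oligodendrocyte list, the endothelial list separates the populations by the widest gap (-1.83 to -0.75 on O4+ arrays, 0.11 to 0.59 on A2B5+ arrays), and O4+ replicate 3 is the lowest array in the microglia, endothelial, choroid plexus and erythroid panels.

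Genes whose pattern over the 9 arrays of type A was most like that of Slc40a1 1387130_at were Stra6, a receptor for retinol-binding protein (Pearson r = 0.993), Tmem204 (0.993), Atp10d (0.986), Net1 (0.986) and Trim5 (0.984). They differed by -1.04 ± 0.20, -1.98 ± 0.27, -1.33 ± 0.23, -1.98 ± 0.31 and -1.97 ± 0.26. Those most like Ireb2 1387440_at were Brat1 (0.967), Zkscan1 (0.954), Col5a1, a fibrillar collagen (0.949), Relch (0.949) and Clcn3, a chloride-proton exchanger of endosomes (0.948), with differences between 0.45 ± 0.16 for Col5a1 and 1.24 ± 0.32 for Clcn3. These correlations describe 9 arrays that fall into 2 populations, so a gene that separates them scores high by that alone.

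Other genes of iron and haem handling moved in both directions, as the tested probe sets did as a whole. Over 5 lists, 22 of 60 tested probe sets on array A were higher and 10 lower, and of 20 on array B, 3 were higher and 3 lower. On array A with arrays centred, 17 were higher and 11 lower, where 18.6% of all tested probe sets were higher and 17.9% lower. Counts as deposited, also those of single lists below, stand beside 32.5% higher and 14.7% lower of all tested probe sets on array A, and beside 9.93% higher and 13.8% lower on array B. As deposited, the array A counts over the 5 lists lay near these shares, so the mixed directions are not particular to iron genes. With arrays centred, the lower count lay near its share and the higher count above it.

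**Figure D4:**
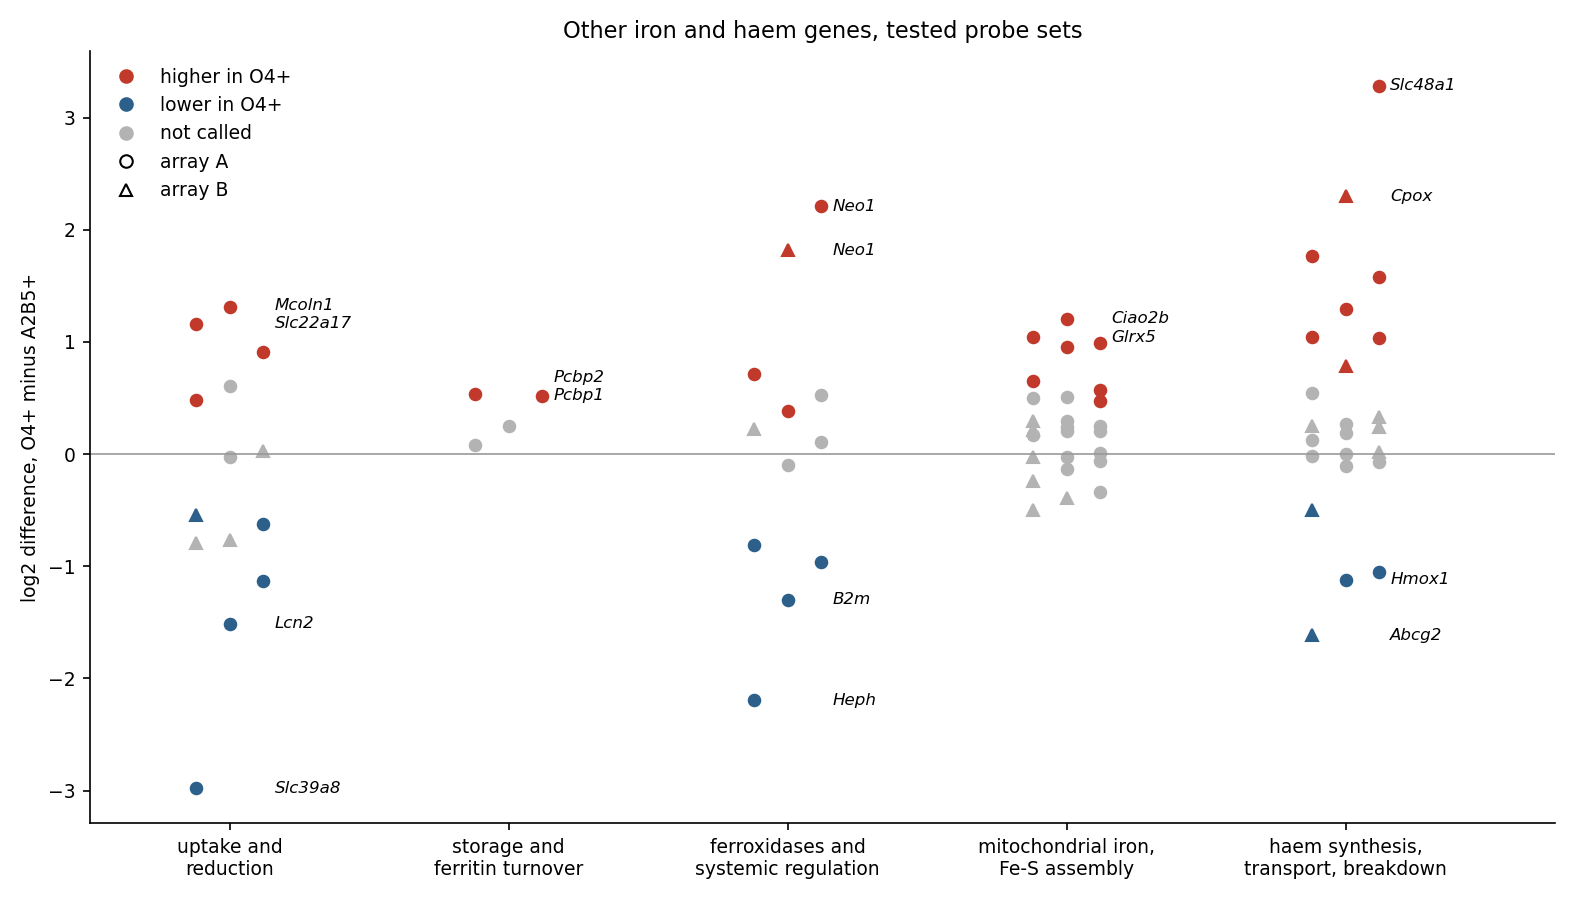
Log2 difference, O4+ minus A2B5+, of tested probe sets in 5 lists of other iron and haem genes; circles are array A and triangles array B, red is higher and blue lower at an adjusted p under 0.05, and grey was not called. Slc48a1 lies highest (3.28) and Slc39a8 lowest (-2.98), with up to 2 called probe sets named in each direction per list.

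Uptake and reduction genes were split on array A, with 4 of 10 probe sets higher and 4 lower. Of 4 on array B, 0 were higher and 1 was lower (limma, 0 higher also at an unadjusted p under 0.05). Slc39a8, a membrane importer of zinc, manganese and iron, had ratios of 0.184, 0.135, 0.124 and 0.316 in O4+ replicates 1 to 4, against 1.66, 1.45, 1.38, 1.58 and 1.00 in A2B5+ replicates 1 to 5. The populations did not overlap, and the gene was 7.88-fold lower in O4+ cells (-2.98 ± 0.27, limma adjusted p = 2.2e-05). Slc39a8 met the filter through the A2B5+ arrays only, and on array A 10.7% of all tested probe sets were lower without overlap. Lcn2, a protein that binds iron-carrying siderophores, fell by 1.51 ± 0.29. Cybrd1, a ferric reductase, fell by 1.13 ± 0.40 (adjusted p = 0.039), a call lost without A2B5+ replicate 1, 2, 3, 4 or 5 or O4+ replicate 3 or 4 (-1.18 to -0.77, adjusted p = 0.053 to 0.11 over those 7).

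The rises in that list came from genes of endosomes and lysosomes and a receptor. Mcoln1, a lysosomal channel that releases iron and calcium, had ratios of 2.44, 2.22, 2.33 and 1.89 in O4+ replicates 1 to 4, against 0.811, 0.889, 0.869, 0.883 and 1.00 in A2B5+ replicates 1 to 5, and was 2.49-fold higher (1.32 ± 0.13, limma adjusted p = 3.4e-05). Slc22a17, described as a receptor for lipocalin 2, rose by 1.16 ± 0.24. Slc11a2, the divalent metal transporter that moves iron out of endosomes, rose by 0.91 ± 0.22 and 0.49 ± 0.12 by its 2 probe sets. The smaller of these calls was lost with quantile normalization (0.27, adjusted p = 0.082).

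In the storage list, 2 of 4 probe sets on array A were higher and 0 lower (limma, also 0 lower at an unadjusted p under 0.05). Pcbp1 and Pcbp2, RNA-binding proteins that deliver iron to ferritin, rose by 0.52 ± 0.12 and, by 1 of its 2 probe sets, 0.54 ± 0.15. With arrays centred the second was no longer called (0.37, adjusted p = 0.088), and with quantile normalization neither was (0.31 for Pcbp1, adjusted p = 0.081, and 0.42 for Pcbp2, adjusted p = 0.12).

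Among ferroxidases and genes of systemic iron regulation, 3 of 10 probe sets on array A were higher and 4 lower, and with arrays centred 1 was higher and 4 lower. Of 2 on array B, 1 was higher and 0 were lower (limma, also 0 lower at an unadjusted p under 0.05). Heph encodes hephaestin, a membrane ferroxidase related to ceruloplasmin. Its ratios were 0.407, 0.332, 0.225 and 0.279 in O4+ replicates 1 to 4, against 1.70, 1.64, 1.00, 1.33 and 1.40 in A2B5+ replicates 1 to 5. Every O4+ array lay below every A2B5+ array, and Heph was 4.58-fold lower (-2.20 ± 0.21, limma adjusted p = 3.1e-05). Heph met the filter through the A2B5+ arrays only, and on array A 10.7% of all tested probe sets were lower without overlap. Slc40a1 (by 2 of 3 probe sets), Cp and Heph were thus all lower in O4+ cells.

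B2m, the light chain that binds Hfe and other class I proteins of the major histocompatibility complex, fell by 1.30 ± 0.27 and 0.81 ± 0.25 by its 2 probe sets. The first met the filter through the A2B5+ arrays only. The second call was lost without A2B5+ replicate 2 or O4+ replicate 1, 3 or 4 (-0.79 to -0.67, adjusted p = 0.054 to 0.068 over those 4). Bmp6, a ligand that induces hepcidin in the liver, fell by 0.97 ± 0.31 by 1 probe set and differed by 0.53 ± 0.23 (adjusted p = 0.077) and, on array B, by 0.22 ± 0.09 (adjusted p = 0.12) by 2 others. The fall was lost without A2B5+ replicate 2 (-0.97, adjusted p = 0.055), O4+ replicate 1 (-0.84, 0.074) or O4+ replicate 3 (-0.78, 0.078).

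Neo1 encodes neogenin, a receptor of netrins and repulsive guidance molecules that also binds hemojuvelin. On array A its ratios were 3.71, 1.31, 3.86 and 4.19 in O4+ replicates 1 to 4, against 0.702, 0.360, 0.779, 1.00 and 0.558 in A2B5+ replicates 1 to 5. It was 4.63-fold higher there (2.21 ± 0.38, limma adjusted p = 0.0012) and 3.52-fold higher on array B (1.82 ± 0.44, adjusted p = 0.017), a call that ended without O4+ replicate 1, 2 or 3 (1.61 to 1.73, adjusted p = 0.051 for each). The populations did not overlap on either array type. The share of all tested probe sets that were higher without overlap was not counted. Bmpr1a, a BMP receptor, and Fbxl5, the ubiquitin ligase subunit that marks iron regulatory protein 2 for degradation, rose by 0.71 ± 0.25 and 0.39 ± 0.14. With arrays centred neither was called (0.54, adjusted p = 0.14, and 0.22, adjusted p = 0.24), nor with quantile normalization (adjusted p = 0.18 and 0.27). The Bmpr1a call was also lost without A2B5+ replicate 2, 4 or 5 or O4+ replicate 1, 3 or 4 (adjusted p = 0.065 to 0.095), and that of Fbxl5 without any array except O4+ replicate 2 (adjusted p = 0.050 to 0.13).

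In mitochondrial iron and iron-sulfur cluster assembly, 7 of 20 probe sets on array A were higher and 0 lower (limma, also 0 lower at an unadjusted p under 0.05). With arrays centred 5 were higher and 1 lower. On array B 0 of 6 were called in either direction, with 0 higher and 1 lower at an unadjusted p under 0.05. The largest rises were Ciao2b, which helps place clusters into cytosolic and nuclear proteins (1.21 ± 0.17), Glrx5, a mitochondrial glutaredoxin that passes clusters on (1.04 ± 0.24), and Nubp2, a scaffold of the cytosolic pathway (0.99 ± 0.16). The list's median difference on array A, 0.28, lay near the 0.26 of all tested probe sets.

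Haem genes held the largest rise of the 5 lists. Of 16 probe sets on array A, 6 rose and 2 fell, and of 8 on array B, 2 rose and 2 fell. Slc48a1, a transporter that moves haem out of endosomes and lysosomes, had ratios of 11.1, 8.44, 6.17 and 11.9 in O4+ replicates 1 to 4, against 0.907, 0.924, 0.951, 1.00 and 0.899 in A2B5+ replicates 1 to 5. It was 9.74-fold higher in O4+ cells (3.28 ± 0.19, limma adjusted p = 1.2e-06). Cpox, an enzyme of haem synthesis, had ratios of 3.90, 5.68, 5.46 and 2.16 in O4+ replicates 1 to 4 on array B, against 0.860, 1.00, 0.829, 0.993 and 0.513 in A2B5+ replicates 1 to 5. It was 4.92-fold higher (2.30 ± 0.32, limma adjusted p = 0.0010). Flvcr2, a transporter named for a viral receptor and described as moving choline and haem, rose by 1.77 ± 0.19.

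The 3 largest of the called falls among haem genes were those of Abcg2, Hmox1 and Alas2. Abcg2 is an efflux pump for porphyrins and drugs that vessels of the brain carry (-1.62 ± 0.41, limma adjusted p = 0.021). Hmox1 is the inducible haem oxygenase that frees iron from haem (-1.12 ± 0.31, adjusted p = 0.016). Alas2 is the first enzyme of haem synthesis in red cell precursors (-1.05 ± 0.34, adjusted p = 0.030). The call of Abcg2 was lost without O4+ replicate 1 (-1.40, adjusted p = 0.058) or 3 (-1.35, 0.058). That of Alas2 was lost without A2B5+ replicate 1, 2 or 3 (adjusted p = 0.055 to 0.066), and without O4+ replicate 3 its fall was 0.63. Alas2 also belongs to the erythroid list given above, and Alas2 and Abcg2 met the filter through the A2B5+ arrays only. Hmox2, also a haem oxygenase, went the other way from Hmox1. On array A it was higher in O4+ cells by 1.58 ± 0.21 (limma adjusted p = 2.1e-04), without overlap. The share of all tested probe sets with such a rise was not counted. On array B Hmox2 was not called (0.25 ± 0.14, adjusted p = 0.21).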

How the data were processed

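Each of 9 replicates had a column in 2 tables, and the authors deposited linear ratios in them. The submitters' processing notes name GCRMA, which corrects background and summarises probes into probe sets, with no version. The sources used here do not record the step that turned its output into ratios. In the deposited files the median ratio of a probe set was exactly 1 for 12995 of the 15923 array A probe sets and for 11050 of the 15333 of array B, and it lay below 1 for all others.

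The log2 of the ratios was taken without offset, 57 control probe sets per type were left out, and testing required a ratio of 1 or more on 4 or more arrays (13098 and 11136 probe sets). O4+ was compared with A2B5+ by limma 3.58.1 in R 4.3.3 (lmFit, eBayes, two-sided), 1 fit per type, adjusted by Benjamini-Hochberg, and the fit was tested on simulated data. Probe sets of a gene were compared by exact permutation tests. Symbols came from the platform annotation, and promoters from RefSeq. P-values measure the spread between replicates, treated as independent. The members and lists were chosen with earlier results of these data known. Named besides all members were, per other iron list, the genes with the 3 largest rises and 3 largest falls among called probe sets. The 5 genes most like the leading member in each direction were named too. Hmox2 was added beside Hmox1 and is not among the named iron genes counted under the alternatives. Alternatives were other filters, scalings, weights, an unmoderated test, a replicate block and leaving out each array.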

Additional observations from a re-analysis of the deposited data

Results flagged for a closer look

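Values far from the rest of their group, by Dixon's test at the 95% level on log2 ratios, were found in 3 of the 24 groups examined (each member probe set in each population), where chance flags about 1 in 20. On array A, A2B5+ replicate 5 had a Tfrc 1388750_at ratio of 1.00, the lowest of its group, whose highest was 1.60. On array A, O4+ replicate 3 had a Slc40a1 1387130_at ratio of 0.184, against a highest of 0.444 in its group. On array B, O4+ replicate 4 had an Ireb2 1390874_at ratio of 0.303, against a highest of 1.03.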

How the results depend on the processing

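The 7 member probe sets lower in O4+ cells kept their direction and their call under all 16 alternatives run on array A (112 values, -2.68 to -0.70, highest adjusted p = 0.043). Ireb2 on array A kept its direction but not its call: the number of member probe sets called higher was 0 with arrays centred and 0 with quantile normalization, and 0 to 1 on leaving out each array in turn. Over all tested probe sets of array A, 7128 were higher without the filter, 2439 with arrays centred and 2131 with quantile normalization, against 4259. Hfe ranged from -0.21 to 0.15, Aco1 from -0.02 to 0.22 and Ireb2 on array B from -0.56 to 0.23, and none of these was called under any of the 16 alternatives. Of 26 called probe sets of other named iron genes, 15 stayed called under all alternatives and none changed sign. An unmoderated test ended the calls of Alas2, Bmpr1a, Cybrd1 and Bmp6 (adjusted p = 0.061 to 0.084), and the replicate block that of Fbxl5 (adjusted p = 0.059). Same-numbered arrays did not deviate together throughout (correlations of 0.020 to 0.31 for array A, and of -0.20 to 0.24 for array B), so the numbers were not taken as pairs. Between array types the A2B5+ numbers matched and the O4+ numbers did not, so equal numbers cannot mark shared litters on both types. Neither these correlations nor the replicate block can therefore decide whether replicates shared litters. With the replicate block, which leaves A2B5+ replicate 5 without a partner, 4129 probe sets of array A were higher and 2103 lower, 870 of array B were higher and 1326 lower, and 1 member probe set was higher and 7 lower on array A. The causes of these shifts were not tested. The number of arrays limits what can be detected for Hfe, Aco1 and Ireb2.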
